A study of Rattus norvegicus with 23 samples.

Results

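DNA methyltransferases, histone deacetylases and a Polycomb methyltransferase were followed in blood cells of suckling rats as a set of 10 genes chosen for their role in early-life programming. The set was Dnmt1, Dnmt3a, Dnmt3b, Uhrf1, Hdac1, Hdac2, Hdac3, Hdac5, Sirt1 and Ezh2. A probe was taken when its gene name in the scanner files, ignoring case and a suffix for predicted genes, was one of these names. This gave 12 of the 41012 probes that were not controls, and they covered 8 of the 10 genes. Hdac2 and Ezh2 had no probe under those names. All 12 probes passed the filter on dim probes, which kept 23722 probes and left 20621 features (1 per named gene, plus unnamed probes) for testing.

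The members place or guide DNA methylation, or write and remove marks on histones. Dnmt1 copies methylation onto the new DNA strand, with Uhrf1 bringing it to hemimethylated sites, while Dnmt3a and Dnmt3b place methylation on unmethylated DNA. Hdac1, Hdac2 and Hdac3 take acetyl groups off histones within co-repressor complexes, Hdac5 shuttles between nucleus and cytoplasm in response to signals, Sirt1 is a deacetylase that uses NAD and responds to nutrient state, and Ezh2 is the methyltransferase of the Polycomb repressive complex that acts on histones.

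Peripheral blood mononuclear cells (PBMC) came from Wistar rat pups aged 21 days. The dams of the CR groups ate a diet restricted by 20% in calories throughout lactation, and the dams of the control groups ate standard chow freely. There were 5 CR males, 6 control males, 6 CR females and 6 control females, with 1 two-colour array per pup. The pup's RNA was labelled with Cy5 and hybridised against a Cy3 pool of all samples, so each value is a log2 ratio of pup over pool, and 0 means the level of the pool. The labels give 5 CR dams and 11 control dams without saying which pup had which dam. Some of the 11 CR pups and some of the control pups were therefore littermates. Each pup was still counted as 1 sample, and p-values may be too small.

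Per array, 20630 to 24094 probes gave Cy5 signal well above background; median Cy5 intensities were 55.6 to 65.8, beside a local background of 27 to 30. Precision is set by the number of arrays, and the log2 difference of a typical feature had a standard error of 0.08 within a sex and 0.06 over both sexes (the mean of the male and the female difference). Of the markers of blood cell types, all 7 measured B cell, 9 T cell and 7 monocyte genes were above background on all 23 arrays. So were all 6 measured neutrophil genes and all 8 red cell genes, which a mononuclear fraction holds less of. The arrays were run on 6 slides, of which 4 held all 4 groups, so within-slide differences rest on 4 slides in males and 6 in females.

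No member of the set was called between CR and control pups in either sex, over both sexes, or for the difference of the effect between the sexes. With limma and a threshold of 0.05 on the Benjamini-Hochberg adjusted p over all features, 0% of the 20621 features were called in males, 0% in females, 0% over both sexes and 0% for the sex difference of the effect. At an unadjusted p under 0.05 the counts over all features were 1474 (7.15%), 956 (4.64%), 1510 (7.32%) and 961 (4.66%). Among the 8 measured members, by the probe used for each, 0 reached an unadjusted p under 0.05 in males and 1 in females. The counts were 0 over both sexes and 1 for the sex difference of the effect. By their second probes, Dnmt1 in males and Hdac3 over both sexes were also under 0.05 (limma, unadjusted p = 0.0248 and 0.0451). In males 3 members were higher and 5 lower in CR pups, where 47.2% of all features were higher and 52.8% lower. In females 3 members were higher and 5 lower, where 51.7% of features were higher and 48.3% lower. The median difference over the members was -0.02 in males and -0.04 in females, against -0.0069 and 0.0034 over all features. Under the main processing, with each pup counted as 1 sample, 95% intervals were taken from the probe used for each gene. Over the 8 members they ran from -0.44 to 0.33 in males and from -0.44 to 0.38 in females, on the log2 scale. Over both sexes they ran from -0.36 to 0.22. A second Dnmt1 probe had an interval of 0.05 to 0.66 in males, beyond that of the members. Some estimates under other processing settings also lay beyond these ranges. Uhrf1 reached 0.46 in males, 0.43 in females and 0.45 over both sexes, and Sirt1 0.45 in males. Hdac5 reached -0.58 in males and -0.40 over both sexes. By the probe used, no member had CR and control groups that did not overlap, where 0.393% of all features did in males and 0.199% did in females.

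**Figure D1:**
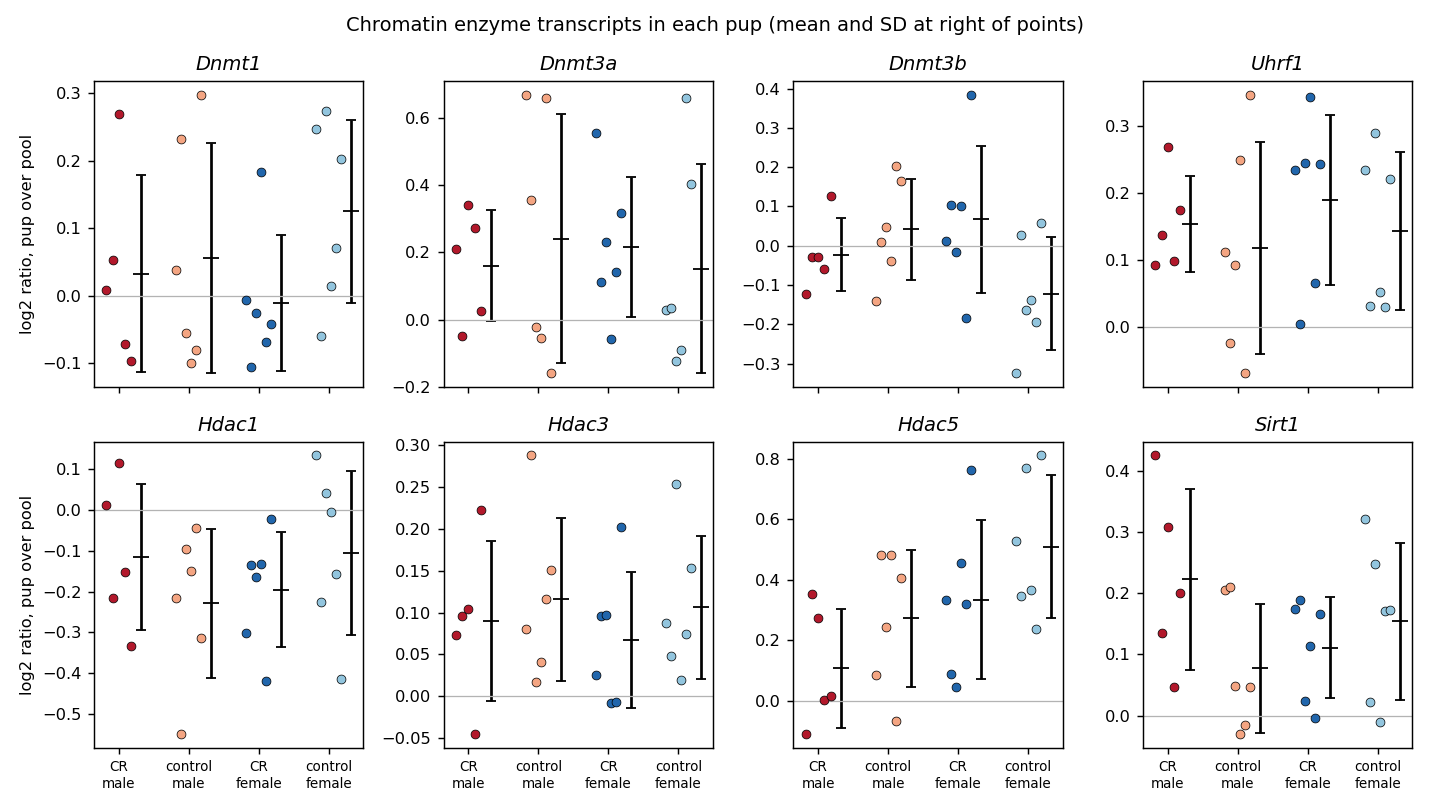
Log2 ratio of pup over pool for the 8 measured members, 1 point per pup, with the mean and SD of each group beside the points. CR males, control males, CR females and control females run from left to right, and the CR and control points of each sex overlap in every panel.

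**Figure D2:**
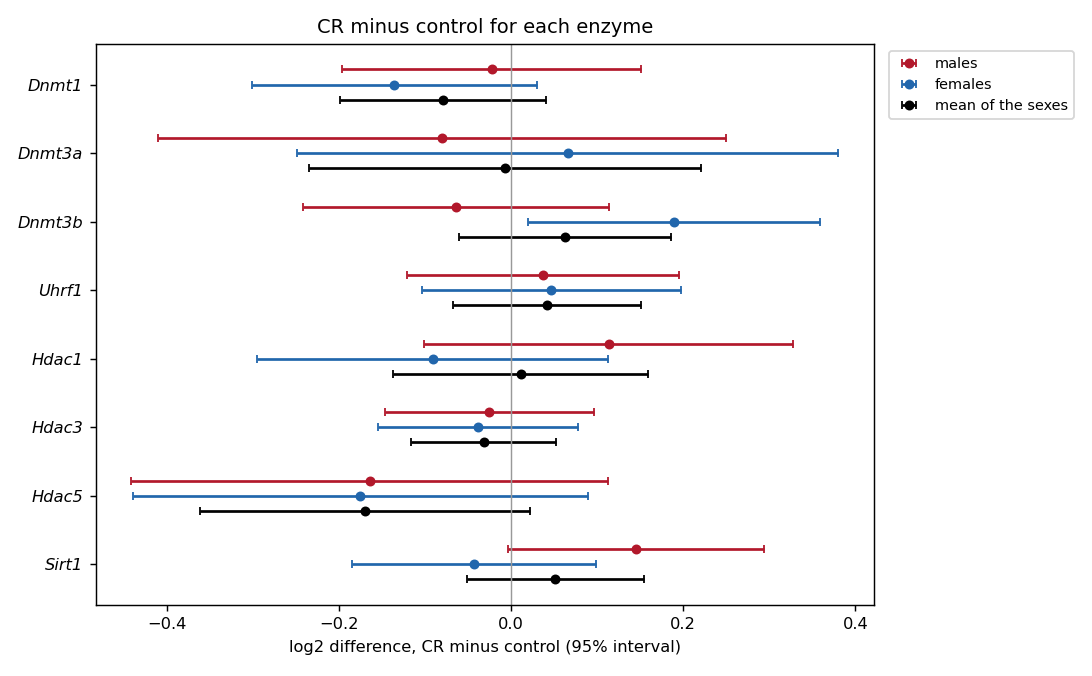
Log2 difference of CR minus control with its 95% interval for each member in males (red), in females (blue) and over both sexes (black). The interval leaves 0 out only for Dnmt3b in females, at 0.19, and that difference did not pass the adjustment over all features.

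The pair that keeps methylation through cell division came first. Dnmt1 was read by a probe at chr8:19929047-19929106 (rn4, minus strand). Its log2 ratios were 0.0082, 0.05, 0.27, -0.07 and -0.10 in CR males, against a lowest of -0.10, a median of -0.0083 and a highest of 0.30 in control males. Among CR females the range was -0.10 to 0.18 with a median of -0.03, and control females from -0.06 to 0.27 with a median of 0.14. The male groups covered nearly the same range. Among females, 5 of 6 CR pups lay below 0 and 5 of 6 control pups above it, yet the ranges overlapped. The difference was -0.02 ± 0.08 (SE) in males and -0.14 ± 0.08 in females (limma, adjusted p = 0.974 and 0.995).

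Uhrf1 was a dim probe, with a raw Cy5 signal of 45.1 to 79.8 against a local background of 27.5, and it was well above background on 21 of 23 arrays (4 of 6 control males). The files place it on an unassigned chromosome of rn4. Log2 ratios in CR males were 0.09, 0.14, 0.27, 0.10 and 0.17. In control males the lowest was -0.07, the median 0.10 and the highest 0.35. CR females had a median of 0.24 (lowest 0.0046, highest 0.34) and control females one of 0.14 (lowest 0.03, highest 0.29). All 4 groups overlapped. The differences of 0.04 ± 0.08 in males and 0.05 ± 0.07 in females were within their standard errors (limma, adjusted p = 0.949 and 0.995). Under other processing settings the difference reached up to 0.46 in males and 0.43 in females.

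The promoter windows of Dnmt1, Uhrf1 and Ezh2 are shown because, of the windows of the set, these carry a match to the binding motif of E2F factors, which drive genes of DNA replication. The RefSeq table (build GRCr8, 250 bases before to 50 after a start site) held 11 windows for 9 of the 10 genes, 3 of them for Uhrf1, and Dnmt3b had none. The motifs TTTCCCGC, TTTCGCGC, TTTGCCGC and TTTGGCGC were searched on both strands; none contains another. They occurred in 3 of the 11 windows and in 2.14% of the 33469 windows of this length in the table. Each motif contains a CpG, and all 11 windows held more CpG than the median window. The share among windows of like CpG content was not computed. Of the 3 Uhrf1 windows, only the one shown had a match. Capitals mark the matches, and a match describes letters and not a bound site. Dnmt1 lies at chr8:27762792-27763091 (minus strand), with the match starting at base 26 of the transcript. The Uhrf1 window lies at chr9:1222936-1223235 (plus strand), with matches starting at -193 and -99 from the start site. The Ezh2 window lies at chr4:77687134-77687433 (minus strand), with the match starting at base 10.
Dnmt1: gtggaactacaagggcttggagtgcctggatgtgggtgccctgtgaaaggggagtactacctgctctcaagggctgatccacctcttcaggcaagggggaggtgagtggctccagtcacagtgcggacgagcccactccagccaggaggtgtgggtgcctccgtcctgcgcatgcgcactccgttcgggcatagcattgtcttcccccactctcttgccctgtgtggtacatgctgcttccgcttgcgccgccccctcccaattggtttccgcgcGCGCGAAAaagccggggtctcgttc
Uhrf1: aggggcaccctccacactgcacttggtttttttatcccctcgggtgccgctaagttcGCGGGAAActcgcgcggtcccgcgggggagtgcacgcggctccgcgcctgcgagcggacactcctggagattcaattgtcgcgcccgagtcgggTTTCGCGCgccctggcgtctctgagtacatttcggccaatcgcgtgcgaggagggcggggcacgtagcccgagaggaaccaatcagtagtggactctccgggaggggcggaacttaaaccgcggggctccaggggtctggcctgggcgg
Ezh2: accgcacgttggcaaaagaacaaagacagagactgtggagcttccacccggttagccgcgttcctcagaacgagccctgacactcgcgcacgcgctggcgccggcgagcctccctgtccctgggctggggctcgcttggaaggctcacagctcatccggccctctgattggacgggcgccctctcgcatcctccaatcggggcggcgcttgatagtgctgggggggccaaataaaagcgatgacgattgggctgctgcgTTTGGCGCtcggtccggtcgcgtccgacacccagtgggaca

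All 11 windows also held more CpG dinucleotides than the median window of the table, which had 7. The counts ran from 8 in 1 of the Uhrf1 windows to 47 in the Sirt1 window, which exceeded 98.7% of all windows in CpG count. The windows printed above held 17 for Dnmt1, 35 for Uhrf1 and 30 for Ezh2.

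Within groups, Uhrf1 and the Dnmt1 probe used varied together from pup to pup, though not past the adjustment. The second Dnmt1 probe, which had r of 0.0036 with that probe over the 23 arrays, was not compared with Uhrf1. Pearson's r of the group-centred log2 ratios was 0.59 and Spearman's rho 0.55 over 23 arrays (permutation within groups, two-sided, p = 0.00743 and 0.0152, adjusted over 36 pairs 0.112 and 0.142). Without the 2 arrays farthest from the median of Dnmt1, r was 0.45. It was 0.56 with slide means also removed and 0.27 on the Cy5 level alone (permutation, adjusted p = 0.121 and 0.532). Uhrf1 also followed the mean of 23 measured proliferation genes (cyclins, Mcm helicase subunits, Top2a and others), with r of 0.56 and rho of 0.53 (permutation p = 0.0126 and 0.0191, adjusted 0.112 and 0.142). That r was 0.38 without the 2 farthest arrays, 0.68 when slide means were also removed (permutation, adjusted p = 0.0348) and 0.74 on the Cy5 level alone (permutation, adjusted p = 0.0252). Removing slide means leaves fewer free values than the permutation assumes, so that adjusted p may be too small. Within a slide there were 3 or 4 arrays, too few for an r of their own.

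None of the 36 pairs, 28 among the members and 8 with the proliferation genes, passed in the group-centred values. Each member stood in these pairs by the probe used for it. Besides those named, the smallest p belonged to Uhrf1 with Hdac5 (r = 0.59, rho = 0.58, permutation p = 0.00870 and 0.00934, adjusted 0.112 and 0.142; r = 0.53 without the 2 farthest arrays, 0.34 with slide means removed and 0.42 on the Cy5 level) and Hdac5 with the proliferation genes (r = 0.55, rho = 0.51, permutation p = 0.0114 and 0.0197, adjusted 0.112 and 0.142; r = 0.41 without the 2 farthest). With slide means also removed, 4 pairs passed: Uhrf1 and Hdac5 each with the proliferation genes, Dnmt1 with Sirt1 and Hdac3 with Sirt1. On the Cy5 level, 1 passed, Uhrf1 with the proliferation genes. Dnmt3a with Dnmt3b, the pair that places new methylation, had r of -0.03 and rho of -0.07 (permutation p = 0.907 and 0.762, adjusted 0.933 and 0.885; r = 0.17 without the 2 farthest).

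**Figure D3:**
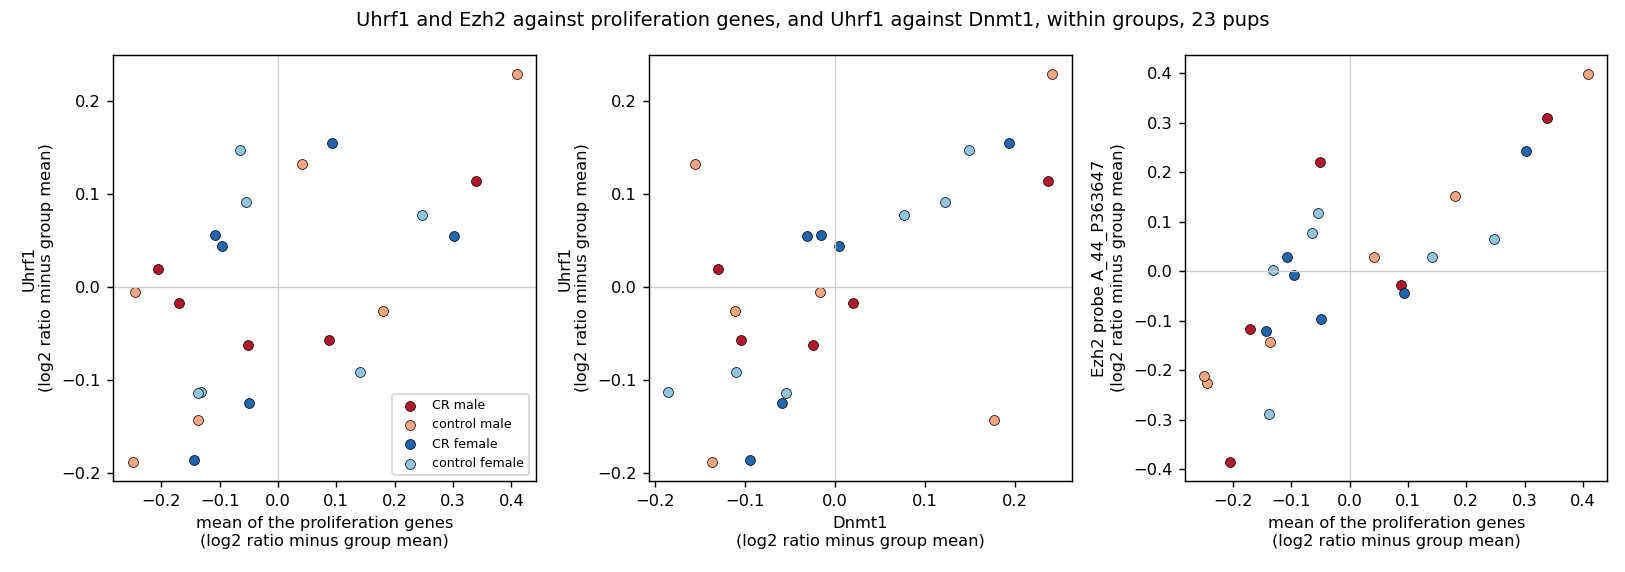
Log2 ratios with the group mean removed, 1 point per pup and coloured by group. Left, Uhrf1 against the mean of the 23 proliferation genes (r = 0.56). Middle, Uhrf1 against the Dnmt1 probe used (r = 0.59). Right, an Ezh2 probe against the proliferation genes (r = 0.80).

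The methyltransferases that place new methylation differed between the sexes in the direction of their estimates. Dnmt3b, read at chr3:144069022-144069081 (rn4, plus strand), had log2 ratios of -0.12, -0.03, -0.03, -0.06 and 0.13 in CR males. Control males ran from -0.14 to 0.20 with a median of 0.03. CR females ran from -0.18 to 0.38 with a median of 0.06, and control females from -0.32 to 0.06 with a median of -0.15. The male groups overlapped almost fully, while 4 of 6 CR females stood above 0 against 2 of 6 control females. The difference was -0.06 ± 0.09 (SE) in males and 0.19 ± 0.08 in females, a 1.14-fold higher mean in CR females (limma, unadjusted p = 0.0302, adjusted p = 0.995). Within slides, CR females exceeded control females on 6 of 6 slides, by 0.01 to 0.34, and CR males lay below control males on 3 of 4. The slides hold the same females as the difference above, so their count is no separate evidence. Such counts were made for the members only, and their share over all features is not known. The difference between the sexes in the effect, male minus female, was -0.25 ± 0.12 (limma, unadjusted p = 0.0440, adjusted p = 0.939), so neither result passed the adjustment.

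Dnmt3a, read at chr6:26878369-26878428 (rn4, plus strand), had the largest SD within groups among the probes used for the members, while Hdac5 had a wider range over all 23 pups (0.92, against 0.83 for Dnmt3a). The Dnmt3a log2 ratios were 0.21, -0.05, 0.34, 0.27 and 0.03 in CR males, against a range of -0.16 to 0.67 and a median of 0.17 in control males. In CR females they spanned -0.06 to 0.55 (median 0.19) and control females from -0.12 to 0.66 (median 0.03). Both control groups held pups at the extremes: 2 control males and 1 control female stood above 0.60, and 3 control males and 2 control females below 0. The SD of Dnmt3a within groups was 0.28, larger than that of 89.9% of all features (median 0.14), which left the differences at -0.08 ± 0.16 in males and 0.07 ± 0.15 in females (limma, adjusted p = 0.944 and 0.995).

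Dnmt3a ratios ran opposite to the neutrophil and monocyte markers. Over 23 arrays, group-centred, r with the mean of the 6 neutrophil genes was -0.65 and rho -0.64 (permutation p = 0.00185 and 0.00359, adjusted over 56 relations 0.104 and 0.101; r = -0.57 without the 2 farthest arrays). With the 7 monocyte genes r was -0.54 and rho -0.60 (permutation p = 0.00490 and 0.00306, adjusted 0.137 and 0.101; r = -0.59 without the 2 farthest). These 56 relations, of 8 members with 7 marker lists, were added after the spread of the members had been seen, and 0 of them passed the adjustment for r (adjusted p under 0.05). The 6 neutrophil genes themselves had a median difference of 0.26 over both sexes, with 0 called by limma and 2 at an unadjusted p under 0.05. In bulk RNA, fewer cells of a type and less RNA per cell cannot be told apart, and the part of cell makeup in these ratios was not tested.

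Among the class I deacetylases, Hdac1 was read at chr5:148673926-148674287 (rn4, minus strand; this span is longer than a probe). Its log2 ratios were 0.01, -0.22, 0.12, -0.15 and -0.33 in CR males, against -0.55 to -0.05 with a median of -0.18 in control males. In CR females they spanned -0.42 to -0.02 (median -0.15) and control females from -0.41 to 0.13 (median -0.08). The groups overlapped in both sexes, and the estimates had opposite signs: 0.11 ± 0.10 in males and -0.09 ± 0.10 in females (limma, adjusted p = 0.852 and 0.995). The difference between these estimates was 0.20 ± 0.14 (limma, adjusted p = 0.939).

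Hdac3, the catalytic part of the nuclear receptor co-repressor complexes, had the smallest SD within groups among the probes used. Its ratios in CR males were 0.07, 0.10, 0.10, -0.05 and 0.22, and control males ran from 0.02 to 0.29 (median 0.10). CR females ran from -0.0081 to 0.20 (median 0.06) and control females from 0.02 to 0.25 (median 0.08). The SD within groups was 0.09, and 11.2% of features had a smaller one. The groups overlapped, with differences of -0.03 ± 0.06 in males and -0.04 ± 0.06 in females (limma, adjusted p = 0.956 and 0.995). This is the narrowest interval among the probes used: the 95% interval over both sexes ran from -0.12 to 0.05.

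Hdac2 was looked at through 2 probes that the files describe as histone deacetylase 2 but name by transcript only, so they stand outside the rule. The probe at chr20:41186032-41186091 (rn4, plus strand) had a CR minus control difference of -0.03 ± 0.08 in males and 0.08 ± 0.07 in females. The probe at chr20:41170996-41171055 gave -0.03 ± 0.08 and -0.09 ± 0.08. Median raw Cy5 signal was 3120 for the first and 90.9 for the second, which was dim, beside local backgrounds of 29 and 30. Adjusted p values from limma over all kept probes were 0.957 and 0.994 for the first, and 0.965 and 0.994 for the second. The first probe followed Hdac1 between pups, with r of 0.55 and rho of 0.41 (permutation p = 0.00837 and 0.0636, adjusted over 8 relations 0.0223 and 0.170). That r was 0.58 without the 2 farthest arrays and 0.52 with slide means also removed. The relation passed by r and not by rho. The second had r of 0.21 with Hdac1 (rho = 0.19, permutation p = 0.353 and 0.397, adjusted 0.470 and 0.636; r = 0.26 without the 2 farthest and -0.0083 with slide means also removed). The 8 relations of probes outside the rule were added after the other correlations had been seen. They were adjusted over 8 relations, and the pairs of members over 36. Dnmt1 with Uhrf1, at a permutation p of 0.00743, had an adjusted p of 0.112 over the 36. Passing among the 8 is therefore a weaker requirement than passing among the 36.

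Hdac5 had the largest estimate over both sexes among the probes used for the members. Its probe, at chr10:91267403-91267871 (rn4, minus strand), gave log2 ratios of -0.11, 0.35, 0.27, 0.0032 and 0.02 in CR males, against -0.07 to 0.48 with a median of 0.33 in control males. CR females ran from 0.04 to 0.76 (median 0.33) and control females from 0.24 to 0.81 (median 0.45). The groups overlapped, with 2 of 6 CR females below the lowest control female and 1 of 5 CR males below the lowest control male. CR minus control came to -0.16 ± 0.13 in males, -0.18 ± 0.13 in females and -0.17 ± 0.09 over both sexes (limma, adjusted p = 0.821, 0.995 and 0.747). Within slides, CR pups were lower than control pups on 3 of 4 slides in males and 4 of 6 in females. With median centring in place of loess, the estimate over both sexes was -0.40, where the median of all features moved to -0.10.

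B cell markers lay lower beside it. All 7 measured B cell genes were lower in CR pups over both sexes at an unadjusted p under 0.05, with a median difference of -0.40 and 0 of 7 called (limma, smallest adjusted p = 0.496). The mean of these genes per array ran from -0.64 to 0.17 in CR males, against -0.03 to 0.55 in control males, and from -0.37 to 0.17 in CR females, against 0.06 to 0.74 in control females. Hdac5 followed that mean between pups within groups (r = 0.51, rho = 0.56, permutation p = 0.0192 and 0.0114, adjusted over 56 relations 0.291 and 0.160; r = 0.47 without the 2 farthest arrays). This relation was read from the probe used for Hdac5, and the other Hdac5 probes were not compared with these markers. The part of B cell RNA in the difference of that probe was not tested.

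By the probes used, Hdac5 was also the member with the largest difference between the sexes. Averaged over the diets it was -0.23 ± 0.09, lower in males than in females (limma, unadjusted p = 0.0196, adjusted p = 0.658). In that comparison limma called 12 of 20621 features (0.0582%), 1528 (7.41%) had an unadjusted p under 0.05, and Hdac5 was the 1 member of 8 with such a p. The other 7 members differed between males and females by -0.03 to 0.04.

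Sirt1, read at chr20:25668200-25668259 (rn4, minus strand), had log2 ratios of 0.42, 0.13, 0.31, 0.05 and 0.20 in CR males. Control males ran from -0.03 to 0.21 with a median of 0.05. CR females ran from -0.0032 to 0.19 (median 0.14) and control females from -0.01 to 0.32 (median 0.17). In males, 2 of 5 CR pups stood above the highest control, and the other 3 lay within the control range. All 6 CR females lay within the range of the control females. The difference was 0.15 ± 0.07 in males, 1.11-fold, and -0.04 ± 0.07 in females (limma, unadjusted p = 0.0555 and 0.536, adjusted p = 0.705 and 0.995). Within slides CR males exceeded control males on 4 of 4 slides that held both, by 0.15 to 0.38 with a mean of 0.25. That mean leaves out the control males of slide 1 (0.20 and 0.21) and the CR male of slide 5 (0.05). The count was not made over all features. With slides as a block the difference was 0.21 (limma, unadjusted p = 0.00570, adjusted p = 0.519). In that fit 1703 of 20621 features had an unadjusted p under 0.05 in males. The scanner software's own ratio gave a larger difference in males, 0.45. The difference between the sexes in the effect was 0.19 ± 0.10 (limma, adjusted p = 0.939). The probe was dim, with a raw Cy5 signal of 57.7 to 107, and was above background on all 23 arrays.

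The strand of the Sirt1 probe on rn4 is opposite to that of the gene in the GRCr8 table. Of 9 probes of other genes within 1 Mb of it, 3 kept their strand between the builds, against 94.8% of 16466 probes overall. For Uhrf1, whose probe also has the opposite strand, 0 of 42 neighbours kept theirs. Which strand of the later build either probe reads was not tested.

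Ezh2 was looked at through 2 probes named LOC312299, the gene ID that the RefSeq table gives to Ezh2. The probe at chr4:75713707-75713766 (rn4, minus strand) had log2 ratios of 0.31, -0.03, 0.39, 0.06 and -0.30 in CR males and of -0.18 to 0.44 (median -0.01) in control males. The range in CR females was -0.03 to 0.34 (median 0.07) and control females from -0.22 to 0.19 (median 0.12). Neither sex separated, with differences of 0.04 ± 0.12 in males and 0.02 ± 0.11 in females (limma over all kept probes, adjusted p = 0.959 and 0.997). The second probe, given across chr4:75732743-75755539, gave 0.11 ± 0.14 and 0.14 ± 0.13 (limma, adjusted p = 0.884 and 0.994).

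The first Ezh2 probe varied from pup to pup with the proliferation genes. Over 23 arrays, group-centred, r was 0.80 and rho 0.82 (permutation within groups, two-sided, adjusted p over 8 relations = 0.00072 and 0.00048), and r was 0.69 without the 2 arrays farthest from the median of the proliferation mean and 0.90 with slide means also removed. The second probe had r of 0.28 with the same genes (rho = 0.28, permutation p = 0.291 and 0.242, adjusted 0.466 and 0.484; r = 0.17 without the 2 farthest and 0.45 with slide means also removed), and the probes had r of 0.51 with each other. The first probe also followed Uhrf1, with r of 0.55 and rho of 0.57 (permutation p = 0.00785 for both, adjusted 0.0223 and 0.0314; r = 0.39 without the 2 farthest and 0.65 with slide means also removed). The second did not pass with Uhrf1 (r = 0.06, rho = 0.04, permutation p = 0.812 and 0.847, adjusted 0.812 and 0.847; r = 0.06 without the 2 farthest), though r was 0.52 with slide means also removed. The adjusted p values of the Ezh2 probes cover the 8 relations added later. They do not compare with those adjusted over the 36 pairs. The proliferation genes themselves had a median of -0.11 in males, where 21 of 23 were lower in CR pups. In females the median was 0.09, and 17 of 23 were higher. Over all features, 52.8% were lower in males and 51.7% higher in females. The list mean per array averaged -0.07 (SD 0.22) in CR males and 0.03 (SD 0.26) in control males. It averaged 0.08 (SD 0.17) in CR females and 0.02 (SD 0.16) in control females. limma called 0 of 23 in each sex, and 1 of 23 reached an unadjusted p under 0.05 in each.

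Probes of the same gene did not tell the same story. The second Dnmt1 probe, whose span is chr8:19952832-19955199 (rn4, minus strand), had log2 ratios of 0.69, 0.0024, 0.73, 0.09 and 0.24 in CR males, against -0.43 to 0.26 with a median of 0.05 in control males. Of the CR males, 2 of 5 stood above every control. That probe gave 0.35 ± 0.15 in males and 0.01 ± 0.14 in females (limma over all kept probes, unadjusted p = 0.0248 and 0.933, adjusted p = 0.636 and 0.997), against -0.02 in males for the first. The 2 Dnmt1 probes had r of 0.0036 over the 23 arrays. The 2 Hdac3 probes had r of 0.11, and the second, at chr18:30861863-30862171, gave -0.11 ± 0.05 over both sexes (limma, unadjusted p = 0.0451, adjusted p = 0.667) against -0.03 for the first.

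The lower Hdac5 estimate came from 1 of 3 probes. The correlations of Hdac5 given above were also read from that probe alone. It was the brightest of the 3, with a median raw Cy5 signal of 1221 beside a local background of 31. The second had 131 beside 35 and the third 71.7 beside 28, so these were dim. The part of signal level in the disagreement was not tested. The second probe, at chr10:91277266-91277325 (minus strand), gave -0.0061 ± 0.06 over both sexes and had r of 0.05 with the probe used. The third, at chr10:91277327-91277386, lies on the plus strand, opposite to the gene, while 48 of 48 neighbouring probes kept their strand between the builds. It gave 0.0087 ± 0.05, with r of -0.45 and 0.43 with the other 2. For the difference between males and females these probes gave 0.05 ± 0.06 and 0.02 ± 0.05, against -0.23 for the probe used.

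**Figure D4:**
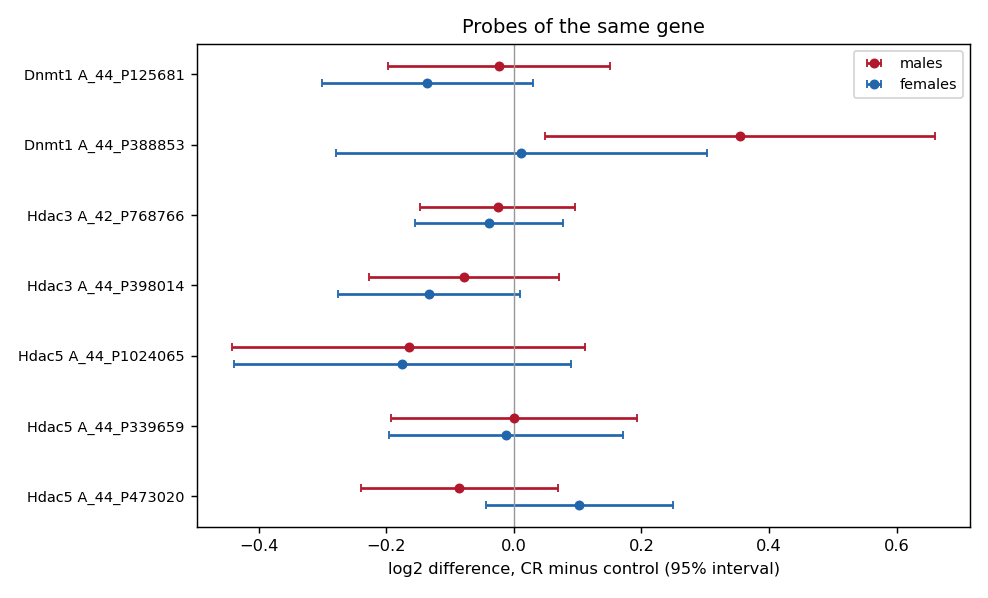
Log2 difference of CR minus control with its 95% interval for each probe of Dnmt1, Hdac3 and Hdac5 in males (red) and females (blue), the probe used for the gene first. The second Dnmt1 probe lies at 0.35 in males, where the first lies at -0.02.

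By pattern over the 23 arrays, group-centred, the most similar of 10451 other named genes were as follows. Hdac5 ran closest to Arhgdia (r = 0.91), Zbtb48 and Wdr91. Dnmt3b ran with Ammecr1l (r = 0.86), Mtrf1l and Smarcc2, a subunit of the SWI/SNF remodelling complex. Sirt1 had Plk3 (r = 0.83), Zfp472 and Rpp14 closest to it. Uhrf1 and Hdac3 had top values of 0.81, Uhrf1 with Reln, followed by Zdhhc1 and Plcb4, and Hdac3 with Ctdp1, followed by Ttc28 and Pdk2. Dnmt1 was nearest to Rnf215 (r = 0.80), Fbh1 and Nmnat1, Hdac1 to Rp9 (r = 0.79), Lman1 and Cdkn2aip, and Dnmt3a to Dnttip2 (r = 0.74), Uchl5 and Hsf2. These are the top values among many genes that share arrays and dye balance, given with no test.

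The wider chromatin machinery held no call either. Of 105 listed partners, deacetylases, acetyltransferases, methyltransferases and demethylases outside the set, 86 were measured and limma called 0 of 86 in each sex and over both sexes. At an unadjusted p under 0.05, 9 of 86 were counted over both sexes, 7 lower and 2 higher in CR pups, beside 7.32% of all features. The median difference over the 86 was -0.01, with 34 higher and 52 lower, beside 50.8% higher and 49.2% lower over all features.

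The methyltransferase and Polycomb list held 5 of those 9. Dot1l, which methylates the core of the nucleosome, was at -0.16 ± 0.04 in CR minus control pups (limma, unadjusted p = 0.000369, adjusted p = 0.496), and the arginine methyltransferase Prmt5 at -0.13 ± 0.06 (adjusted p = 0.612). Mtf2, a Polycomb partner of Ezh2, was at 0.16 ± 0.07 (limma, adjusted p = 0.630) and Rnf2, a ubiquitin ligase of the other Polycomb complex, at 0.09 ± 0.06 (adjusted p = 0.798). The list's median was -0.05 over 22 measured genes, 7 higher and 15 lower.

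Among the 14 measured partners in DNA methylation and demethylation, the subunit of the NuRD co-repressor Mbd3 was at -0.26 ± 0.07 (limma, unadjusted p = 0.00184, adjusted p = 0.585) and Ahcy, which clears the by-product of methylation, at -0.07 ± 0.06 (adjusted p = 0.863). On the other side, Zbtb33 was at 0.16 ± 0.09 (limma, adjusted p = 0.754) and Gadd45a at 0.14 ± 0.16 (adjusted p = 0.911). The 25 measured deacetylases and complex subunits had a median of -0.01, with Mta1, also of NuRD, at -0.11 ± 0.05 and Hdac10 at -0.16 ± 0.07 (limma, adjusted p = 0.661 and 0.674), and Sap18 at 0.07 ± 0.04 and Hdac4 at 0.11 ± 0.09 (limma, adjusted p = 0.795 and 0.863).

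The 12 acetyltransferases had a median of -0.0096 and none at an unadjusted p under 0.05, with Kat6a at 0.21 ± 0.16, Kat6b at 0.0044 ± 0.06, Ncoa1 at -0.05 ± 0.04 and Kat5 at -0.08 ± 0.08. The 13 demethylases had a median of 0.03, with Phf8 at 0.22 ± 0.10 (limma, unadjusted p = 0.0416, adjusted p = 0.674), Kdm4c at 0.08 ± 0.06, Kdm2b at -0.04 ± 0.05 and Kdm6b at -0.04 ± 0.09. In the proliferation list, Mcm4 was at 0.14 ± 0.07 and Ccnb2 at 0.08 ± 0.10, while Mcm5 was at -0.11 ± 0.05 and Mcm7 at -0.29 ± 0.16 (limma, adjusted p = 0.721, 0.922, 0.654 and 0.737).

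**Figure D5:**
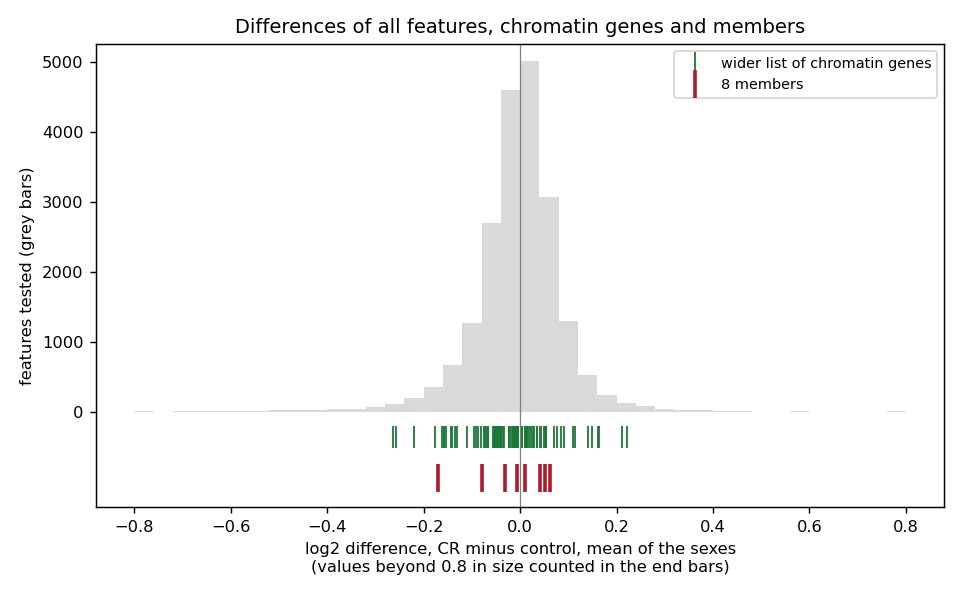
Log2 difference of CR minus control over both sexes. Grey bars count all 20621 features, green ticks mark the 86 wider chromatin genes and red ticks the 8 measured members, whose estimates lie between -0.17 and 0.06.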

How the data were processed

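The deposited scanner files hold an intensity per spot and channel from 23 arrays of an Agilent rat design, read with Agilent Feature Extraction 10.5.1.1 and not normalized, per the file headers and the submitters' processing notes. Per the file headers, Agilent's software also wrote a Cy5-to-Cy3 ratio as log10, background-subtracted and dye-normalized, and other columns that mark outlier spots and spots well above background. A deposited table of log2 values, whose method is not given in the sources used here, served as an alternative only.

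Mean intensities were corrected with limma's normexp (median local background, offset 50) and normalized by loess within arrays, with control spots at weight 0. Outlier spots were set to missing and spots of a probe averaged. A probe was kept if its Cy5 was well above background on at least 50% of the arrays of 1 group, and the brightest kept probe stood for a gene. The 4 group means were estimated by limma (version 3.58.1, R version 4.3.3), with Benjamini-Hochberg adjustment over all features. Names came from the RefSeq table of GRCr8, which 20767 of 41012 probes matched; positions follow the array's rn4 annotation. Scripts were tested on simulated data.

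Correlations used 100000 permutations within groups. Members and lists were chosen with earlier results of these data known. Named were every member and its probes, the 2 genes of each wider list with the smallest p in each direction over both sexes, the 3 genes most like each member, and the pairs that passed the adjustment plus Dnmt1 with Uhrf1, Hdac1 with Hdac2, Dnmt3a with Dnmt3b and Uhrf1 with Ezh2. Uhrf1 with Hdac5 and the relations with blood cell markers were named after their values were seen. Alternatives were blocks, normalization, channel, background, filters, probe choice, weights and leaving out each array.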

Additional observations from a re-analysis of the deposited data

Results flagged for a closer look

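Dnmt1 in CR female replicate 4 had a log2 ratio of 0.18, the highest of its group. Its gap to the next CR female was 0.66 of the whole range of the 6 CR females, which is past the limit of Dixon's test for 6 samples. The other 5 CR females lay between -0.10 and -0.0060. In all, 1 of 32 groups of member values (8 members in 4 groups) was past that limit, and chance passes it in about 5% of groups. Without that pup, the Dnmt1 difference of CR minus control in females was -0.17 (limma, adjusted p = 0.747), against -0.14 with it.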

How the results depend on the processing

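No member was called for any of the 5 comparisons under any of the 12 other settings or without any of the 23 arrays, and the smallest adjusted p of a member was 0.0946 (Hdac5 in males with median centring). Median centring moved the median of all features to -0.19 in males, -0.10 over both sexes and -0.16 for the sex difference of the effect, and the values given under it include that shift. Over all features, CR minus control in males gave 4 calls without CR male replicate 2 and 0 without each other array, and over both sexes there were 3 without CR male replicate 2, 1 without CR female replicate 1, 0 without each other array and 2 with array weights. Of the pairs, 4 passed with group and slide means removed and 1 on the Cy5 level, where 0 passed otherwise, and Dnmt3a with Dnmt3b had r of 0.38 and 0.18, against -0.03. With the replicate number as a block, 1 feature was called in males and Uhrf1 for the sex difference of the effect turned to 0.014; no other call of CR against control or sign changed. Same-numbered arrays had a mean correlation of 0.06 (-0.41 to 0.46), against -0.01 (-0.48 to 0.58) for arrays of other numbers. Of the 23 arrays, 5 correlated best with their own number. These values do not settle whether the numbers pair pups. Dnmt3b in females stayed at 0.12 to 0.22 over the other settings, Sirt1 in males at 0.10 to 0.45 and Hdac5 over both sexes at -0.40 to -0.14. Uhrf1 ran from 0.01 to 0.46 in males, from -0.02 to 0.43 in females and from 0.0018 to 0.45 over both sexes.

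The values that follow are log2 differences whose sign turned; the cause was not tested. With median centring in place of loess the sign turned in males, Hdac1 -0.38; over both sexes, Dnmt3b -0.13 and Hdac1 -0.23; for the sex difference of the effect, Dnmt1 -0.077, Hdac1 -0.28, Hdac3 -0.37 and Hdac5 -0.36; between males and females, Dnmt3a -0.012, Dnmt3b -0.021 and Hdac3 -0.074. With scale normalization between arrays the sign turned in females, Hdac3 0.0017 and Sirt1 0.044; over both sexes, Dnmt3a 0.041 and Hdac1 -0.047; for the sex difference of the effect, Hdac3 -0.040 and Hdac5 -0.026; between males and females, Dnmt1 0.020, Dnmt3a -0.0017, Hdac1 0.060, Hdac3 -0.012 and Sirt1 -0.021. On Cy5 alone the sign turned in males, Hdac3 0.0076; in females, Uhrf1 -0.018 and Hdac1 0.035; over both sexes, Dnmt3a 0.028; for the sex difference of the effect, Uhrf1 0.040; between males and females, Dnmt1 0.026 and Hdac1 0.017. In the deposited value table the sign turned over both sexes, Dnmt3a 0.019; for the sex difference of the effect, Uhrf1 0.0068, Hdac3 -0.0058 and Hdac5 -0.0039; between males and females, Dnmt1 0.0011, Hdac1 0.023 and Sirt1 -0.046. Without background correction the sign turned over both sexes, Dnmt3a 0.024; for the sex difference of the effect, Uhrf1 0.021; between males and females, Dnmt1 0.011, Dnmt3a -0.010 and Sirt1 -0.015. With array weights the sign turned in females, Sirt1 0.023; over both sexes, Dnmt3a 0.011; for the sex difference of the effect, Hdac3 -0.047; between males and females, Dnmt1 0.022 and Uhrf1 0.027. With the scanner software's ratio the sign turned over both sexes, Dnmt3a 0.028; for the sex difference of the effect, Uhrf1 0.028; between males and females, Dnmt1 0.016. With slides as a block the sign turned in males, Dnmt1 0.022; over both sexes, Dnmt3a 0.014; for the sex difference of the effect, Uhrf1 0.0084. The ranges over the 23 fits without 1 array, for results whose sign turned in at least 1 of them, were in males, Dnmt1 -0.082 to 0.026, Dnmt3a -0.16 to 0.0048, Uhrf1 -0.0010 to 0.082 and Hdac3 -0.059 to 0.0090; in females, Dnmt3a -0.0019 to 0.17; over both sexes, Dnmt3a -0.047 to 0.043 and Hdac1 -0.021 to 0.038; for the sex difference of the effect, Uhrf1 -0.048 to 0.036, Hdac3 -0.020 to 0.048 and Hdac5 -0.057 to 0.096; between males and females, Dnmt1 -0.043 to 0.0064, Dnmt3a -0.026 to 0.067, Hdac1 -0.053 to 0.010, Hdac3 -0.0013 to 0.033 and Sirt1 -0.0075 to 0.040.

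The number of arrays limits all comparisons, and the Uhrf1 and Sirt1 probes were dim.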
